A study of Mus musculus with 48 samples.

Results

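The genes described here are 33 members of peroxisome biogenesis and peroxisomal beta-oxidation. They were chosen by name from the gene names on a mouse liver array, though with earlier results of these data known. All 33 had a tested probe, out of 22029 gene names tested and 37074 gene names on the array. Liver RNA came from 48 male C57BL/6J mice, 1 Agilent array per mouse, in 6 groups of 8. The groups were WT mice, Pparα hep-/- mice and Pparα-/- mice, each on the control diet (CTRL) or the high fat diet (HFD, fat 60%), given over 12 weeks up to an age of 20 weeks as the labels state (the study's methods give a shorter diet period). Pparα hep-/- mice carried floxed Pparα and a Cre recombinase driven by the albumin promoter, so the gene is deleted in hepatocytes and kept in other liver cells, whereas Pparα-/- mice lack it in every cell. All mice were housed at thermoneutrality and killed in the fed state. WT mice were bought from a breeder and both deletion lines were bred at the study's own facility, so genotype and origin of the animals cannot be told apart in any comparison with WT.

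Peroxisomes are organelles that shorten very long-chain, branched and dicarboxylic acyl chains and bile acid precursors by beta-oxidation, with hydrogen peroxide as a by-product of the first step. Peroxins (Pex genes) build the organelle: some insert its membrane proteins, others import matrix enzymes, and the Pex11 proteins elongate and divide it. PPARα is a nuclear receptor for fatty acids that pairs with RXR on direct repeats of a short DNA motif, and its activation by drugs in rodent liver is known for inducing peroxisomal beta-oxidation genes and peroxisome number.

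The promoters of 4 members are shown. Acaa1b and Pex11a had the largest HFD responses of the members in WT liver. Pex11g and Acox2 are shown because they were the only members whose window held the repeat described next. On HFD Pex11g was lower and Acox2 higher in Pparα-/- than in WT liver, but larger differences were seen for other members, such as Ech1 (-1.64). Each promoter shown is the 250 bases before a RefSeq start (GRCm38.p6), read along the gene on the minus strand. Capitals mark a match to a relaxed direct repeat, the half-site GGNCA followed by 1 base of any kind and the half-site AGGNCA. The windows are Pex11a at chr7:79743132-79743381, Acaa1b at chr9:119157094-119157343, Pex11g at chr8:3467649-3467898 and Acox2 at chr14:8259020-8259269.
Pex11a: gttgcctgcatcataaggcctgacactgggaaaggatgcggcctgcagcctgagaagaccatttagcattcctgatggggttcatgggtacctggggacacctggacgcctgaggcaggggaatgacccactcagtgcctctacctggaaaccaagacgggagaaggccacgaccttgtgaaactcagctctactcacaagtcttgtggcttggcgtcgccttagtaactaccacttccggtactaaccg
Acaa1b: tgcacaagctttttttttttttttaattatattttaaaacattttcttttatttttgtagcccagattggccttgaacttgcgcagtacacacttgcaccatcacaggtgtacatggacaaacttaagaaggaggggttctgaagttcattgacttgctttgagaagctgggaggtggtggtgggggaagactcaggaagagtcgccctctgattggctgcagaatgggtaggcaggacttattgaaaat
Pex11g: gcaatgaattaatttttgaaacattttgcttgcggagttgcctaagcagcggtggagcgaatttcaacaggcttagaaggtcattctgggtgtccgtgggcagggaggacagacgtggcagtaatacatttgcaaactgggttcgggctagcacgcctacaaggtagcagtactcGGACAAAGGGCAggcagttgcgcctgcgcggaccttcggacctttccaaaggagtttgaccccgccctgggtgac
Acox2: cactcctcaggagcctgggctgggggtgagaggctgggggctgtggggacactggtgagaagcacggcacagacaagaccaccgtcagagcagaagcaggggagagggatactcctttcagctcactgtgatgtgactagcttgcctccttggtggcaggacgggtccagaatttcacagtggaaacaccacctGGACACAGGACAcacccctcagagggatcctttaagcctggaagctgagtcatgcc

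Of the 27 members with such a window in the promoter table, 2 (7.41%) held this repeat on either strand, against 0.81% of all 27025 genes. The matches were GGACAAAGGGCA in Pex11g, 75 to 64 bases before the start, and GGACACAGGACA in Acox2, 56 to 45 bases before the start. Because Acox2 has several starts, the same match also lies 236 to 225 bases before another one. The single half-site AGGTCA, which the repeat can contain but did not contain in these matches, was present in 3 of the 27 members (Pex11g, Scp2 and Cat), against 15.8% of all genes. Pex11a and Acaa1b held no match in this window, which says only that these letters are not there. The motifs were searched after the values of the members had been seen, and a match is a description of sequence.

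Array precision is limited by the number of mice. Median spot intensity was 56 to 91 per array against a local background of 20 to 36, and the 33 probes were bright, with a median log2 signal of 13.42 against 8.47 over all gene names. Array weights, which give less influence to arrays that depart from their group over all probes, ranged from 0.189 to 2.53, and 5 arrays had a weight under 0.5. Within the WT HFD group, replicates 1 and 2 were the lowest mice for 23 of the 33 members. These mice were also the lowest of the group for Cfd, an adipocyte marker, at log2 signals of 7.49 and 5.74 against 13.9 to 15.5 in the other 6 mice. Counts of called members are given without both mice below. The targeted gene was checked with its 2 tested probes, whose place relative to the deleted exon was not determined here. In Pparα-/- mice both probes were lower than in WT on CTRL, by 0.65 and 1.11 on the log2 scale, yet well above background on every array. In Pparα hep-/- against WT mice the first differed by -0.42 and the second by -0.10 on CTRL, where only the first passed (limma adjusted p = 0.000887 and 0.454). On HFD they differed by -0.85 and -0.68, with no overlap (adjusted p = 5.12e-10 and 3.34e-08).

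In WT liver, 19 of the 33 members rose on HFD and 0 fell, against 9.32% of all gene names that rose and 10.1% that fell (19.5% in all). At an unadjusted p under 0.05 by limma, 26 rose and 1 fell. The share of gene names at this looser threshold is not given, here or below, so such counts cannot be set beside the shares printed. In Pparα hep-/- liver 11 members rose and 1 fell, with 10.7% and 11.8% of gene names called in these directions (22.5% in all). In Pparα-/- liver 8 rose and 2 fell, with 13.8% and 12.6% of gene names called (26.4% in all). The median log2 difference of the members was 0.33 for WT liver, against 0.07 and 0.06 for Pparα hep-/- and Pparα-/- liver, while the median over all gene names was within 0.02 of 0 in each. The background was not matched for signal, and the members were brighter than most probes.

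The 6 genes that rose in all genotypes were Acaa1a, Crot, Decr2, Ech1, Eci2 and Hsd17b4, which are enzymes and not peroxins, against 1.34% of gene names. Those that rose in WT and in Pparα hep-/- liver numbered 9, which was 47.4% of the WT list and 81.8% of the other, against 2.39% of gene names. A further 10 of the 19 rose in WT and in neither deletion line, namely Pex3, Pex14, Pex16, Pex19, Pex11g, Acot8, Abcd2, Abcd3, Abcd4 and Cat. Of these, Pex14 was called lower in Pparα-/- liver. The others were called in neither deletion line, against 5.12% of gene names that rose in WT and were called in neither. That a gene passed in WT alone does not show that its response differed, and the differences themselves are tested below. Without WT HFD replicates 1 and 2, the mice that stood apart, 24 members rose in WT liver and 0 fell. The share of gene names called in refits such as this one is not given, here or below. Whether a changed count is particular to the members was therefore not tested. Without replicate 1 alone the WT count was 21, and without the 5 arrays of low weight it was 18. Without array weights 6 members were called in Pparα hep-/- liver in place of 12.

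**Figure D1:**
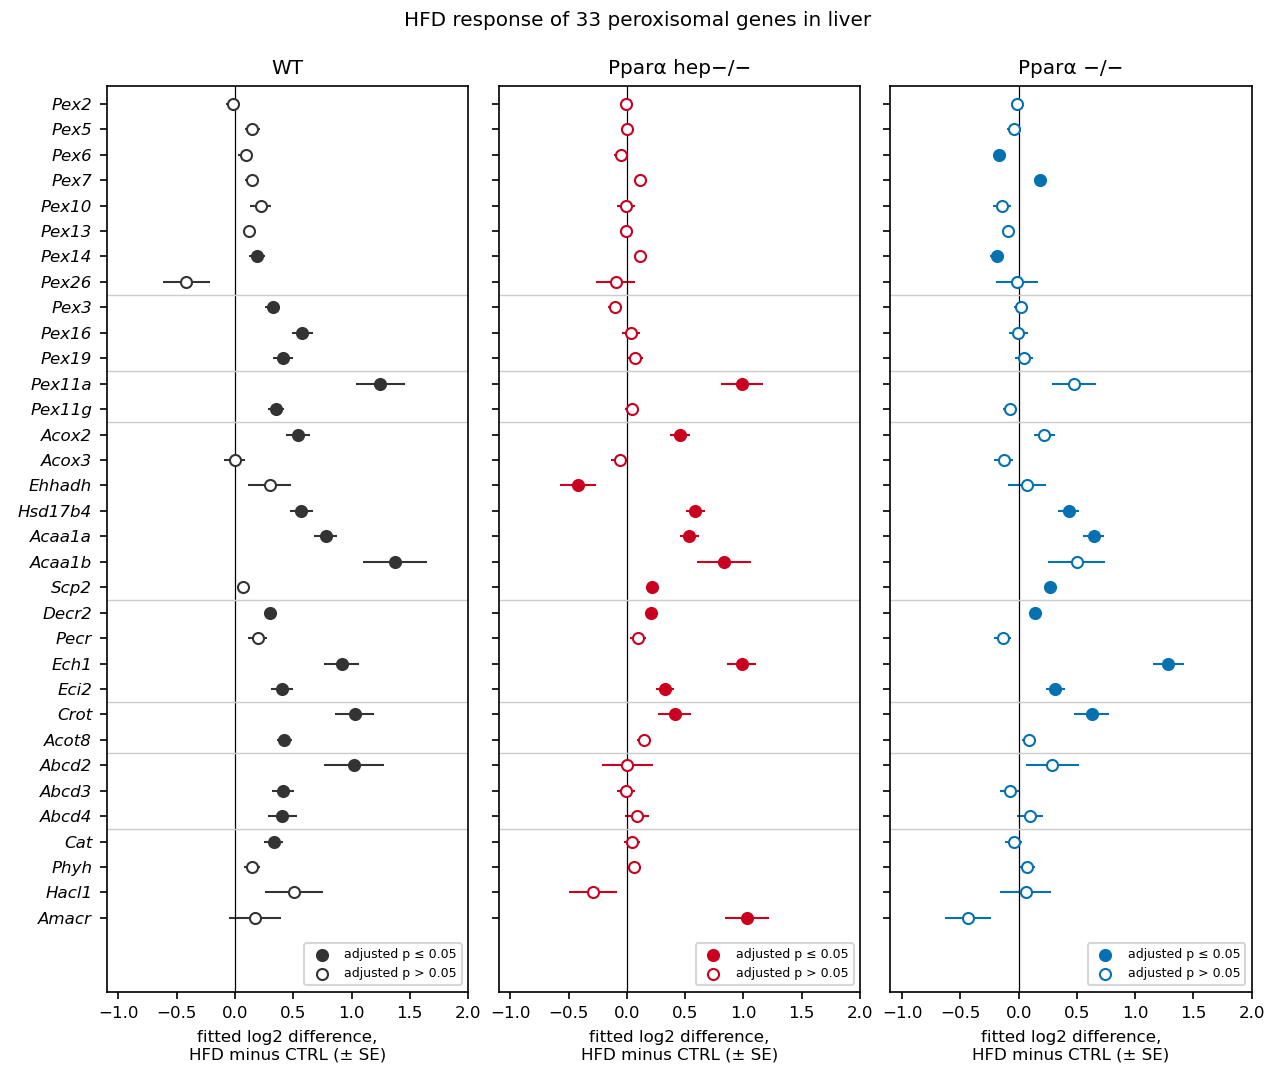
Fitted log2 difference between HFD and CTRL (x axis, bars are SE) for the 33 members (y axis, grouped by role) in WT, Pparα hep-/- and Pparα-/- liver, with filled points at an adjusted p of at most 0.05. The WT panel has 19 filled points, all to the right of 0, against 12 and 10 in the other panels, and Ech1 lies far to the right in each.

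In Pparα-/- against WT liver, 11 members were lower, 5 higher and 17 not called on CTRL, against 18.4% and 16.9% of gene names (35.3% in all). On HFD, 20 were lower and 2 higher, against 23.7% and 24.1% of gene names (47.8% in all). The CTRL and HFD comparisons use different mice, and 10 members were lower in both, against 10.9% of gene names. On CTRL, in Pparα hep-/- against WT liver, 9 members were lower and 7 higher (12.9% and 12.3% of gene names, 25.2% in all), and on HFD 10 were lower and 2 higher (14% and 14.6%, 28.6% in all). Of these, 7 were lower on both diets, against 4.15% of gene names, namely Abcd2, Acot8, Decr2, Ech1, Eci2, Hsd17b4 and Pex6. Between the deletion lines, Pparα-/- liver was lower for 12 members and higher for 3 on CTRL (13.4% and 13.2% of gene names, 26.6% in all). On HFD the same comparison gave 14 lower and 2 higher (15% and 16.9%, 31.9% in all). Without array weights the calls fell from 16 to 9 for Pparα hep-/- against WT on CTRL and from 16 to 9 for Pparα-/- against Pparα hep-/- on HFD. Without WT HFD replicates 1 and 2, members lower and higher than WT on HFD numbered 14 and 1 in Pparα hep-/- and 22 and 2 in Pparα-/- liver, with no share of gene names for this refit.

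Complete separation of all 8 mice from the other 8 was seen for 9 members in Pparα-/- against WT on HFD, where 7.2% of gene names were called with no overlap. It was seen for 6 members on CTRL, against 6.61% of gene names. The corresponding counts for Pparα hep-/- against WT were 3 on CTRL and 2 on HFD, against 1.37% and 1.5%, and for Pparα-/- against Pparα hep-/- 3 and 5, against 4.77% and 7.02%. Between diets, 0 members separated completely in WT liver, against 0.617% of gene names by limma, and 1 in each deletion line, against 0.64% in Pparα hep-/- and 1.61% in Pparα-/- liver. Acox3, an oxidase of branched-chain acyl-CoA, and Phyh, which starts alpha-oxidation of phytanic acid, were called in none of the 12 comparisons, with log2 differences between -0.16 and 0.15.

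**Figure D2:**
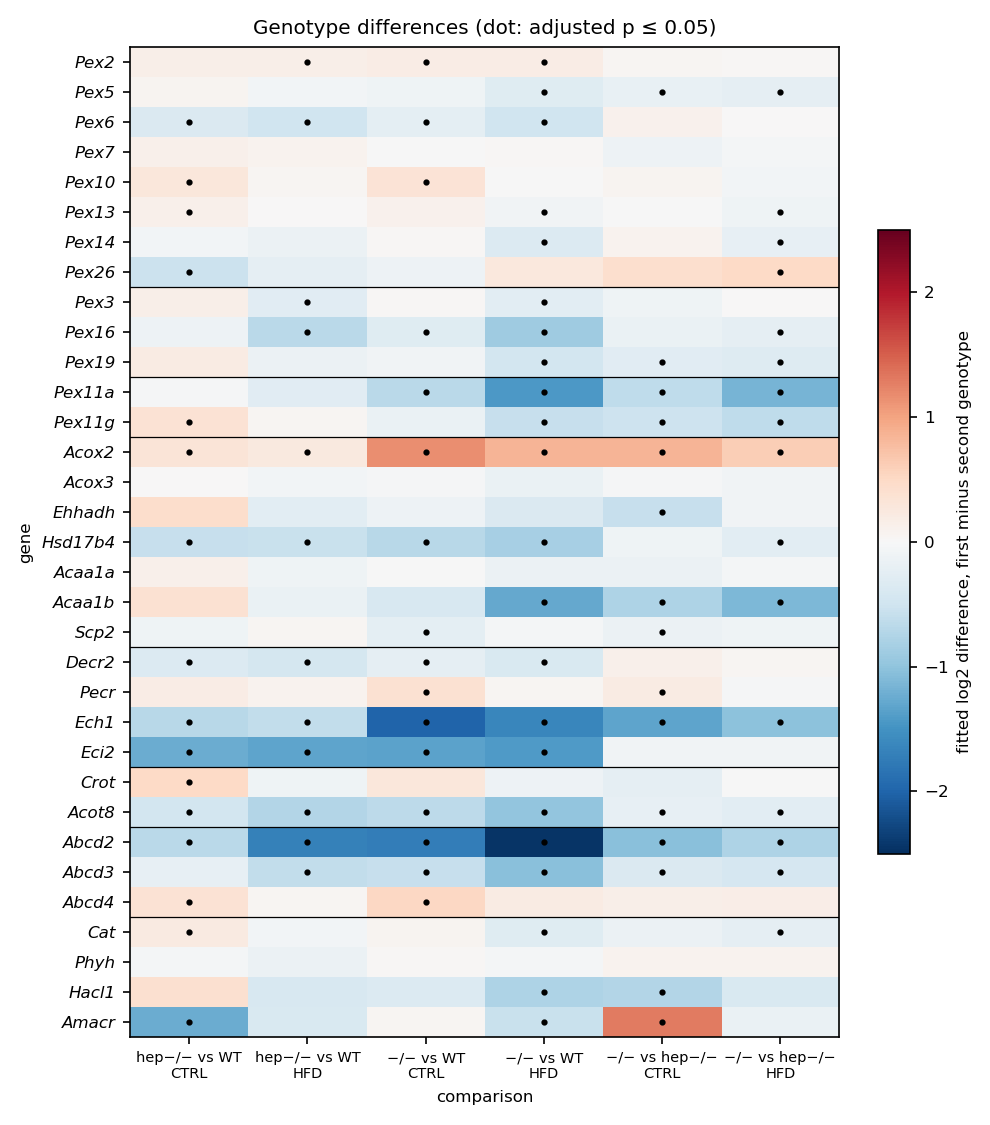
Fitted log2 differences between genotypes (colour) for the 33 members (rows, grouped by role, lines between groups) on CTRL and HFD (columns), with a dot at an adjusted p of at most 0.05. Blue prevails in the Pparα-/- against WT column on HFD, where 20 members were lower, and Acox2 is red in each column.

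The differences of the HFD response between genotypes were then tested as such. A lower response here is an HFD minus CTRL difference that was less positive or more negative. Compared with WT, the response was lower for 8 members in Pparα hep-/- liver and higher for 0, against 6.3% and 4.86% of gene names (11.2% in all), and at an unadjusted p under 0.05 these were 12 and 1. In Pparα-/- liver it was lower for 12 and higher for 0, against 7.77% and 7.75% (15.5% in all), with 19 and 1 at an unadjusted p under 0.05. Pparα-/- and Pparα hep-/- responses differed for 2 members, Pex14 and Amacr, both lower in Pparα-/- liver, against 1.38% of gene names, and 0 were higher, against 2.55% (3.93% in all), with 3 and 1 at an unadjusted p under 0.05. The first pair of comparisons shares the WT mice. These calls depended on the array weights. Without weights they numbered 0, 2 and 1, although 2, 13 and 3 members were then lower at an unadjusted p under 0.05. Without the 5 arrays of low weight, and with weights for the rest, they numbered 10, 14 and 2. Without WT HFD replicates 1 and 2 they numbered 11, 17 and 2, of which Amacr in Pparα hep-/- against WT liver was the one higher (0.88, adjusted p = 0.0456). These mice were removed after the values were seen, and the share of gene names in that refit is not given.

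**Figure D3:**
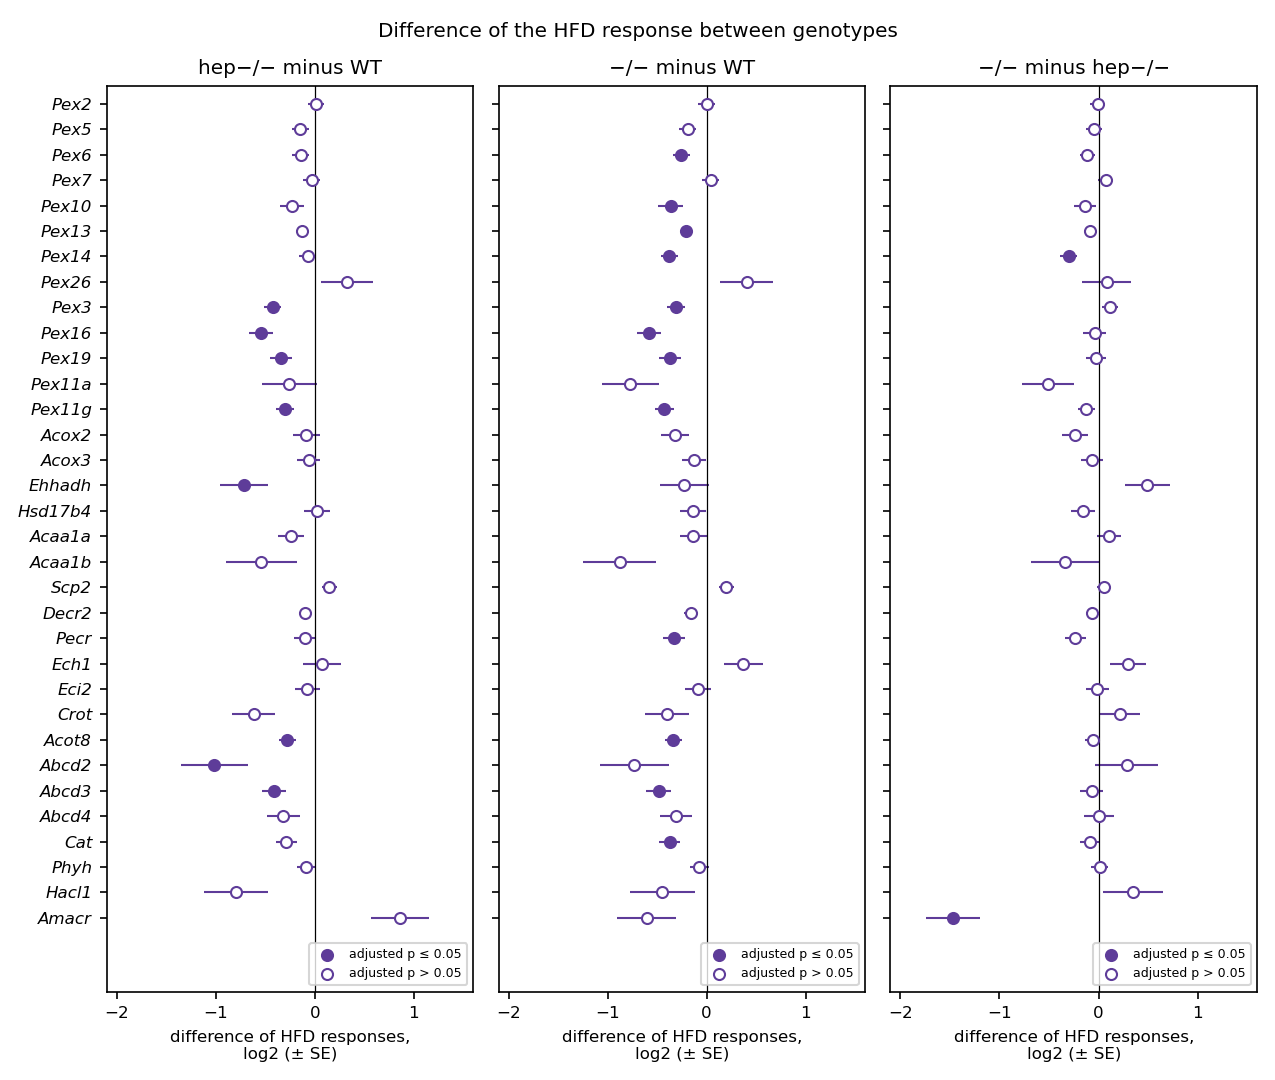
Difference of the HFD response between genotypes (x axis, log2, bars are SE) for the 33 members (y axis), filled at an adjusted p of at most 0.05. The 8 filled points of the first panel, the 12 of the second and the 2 of the third all lie to the left of 0.

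The peroxisome-dividing Pex11 genes had one large and one small response. For Pex11a (probe at chr7:86882223-86882282, mm9), log2 signal in WT mice was 13.99 to 14.89 (median 14.38) on CTRL and 13.95 to 16.10 (median 15.70) on HFD. Of the 8 WT HFD mice 6 lay above the CTRL mean, while replicates 1 and 2 were at 14.09 and 13.95, low in the CTRL range or just below it. The fitted rise was 2.38-fold (log2 1.25 ± 0.21, SE, adjusted p = 4.87e-05), and the differences of group means within the wash batches were 0.97 and 0.89. The signal in Pparα hep-/- mice went from 13.87 to 14.92 (median 14.37) on CTRL to 14.59 to 15.91 (median 15.21) on HFD, a 1.99-fold rise (log2 0.99 ± 0.18, adjusted p = 0.000119). Pparα-/- mice lay lower, at 13.36 to 14.15 (median 13.66) and 13.74 to 14.54 (median 14.23), and the HFD difference of 0.48 ± 0.19 did not pass (adjusted p = 0.0581). On HFD all Pparα-/- mice were below all Pparα hep-/- mice, by 1.16 ± 0.17 (adjusted p = 8.58e-07). Against WT on HFD they were lower by 1.44 ± 0.19 (adjusted p = 1.92e-08). None of the 3 differences of response passed for Pex11a, so its HFD response was not shown to differ between genotypes over all mice. Without WT HFD replicates 1 and 2, which were removed after the values were seen, the Pparα-/- response was lower than that of WT for Pex11a (-0.97, adjusted p = 0.00398).

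Pex11g (chr8:3458831-3458890), another member of the family, rose 1.27-fold on HFD in WT liver (log2 0.35 ± 0.07, adjusted p = 0.000302). WT mice were at 13.72 to 14.21 (median 14.03) on CTRL and 14.01 to 14.48 (median 14.28) on HFD. Pparα hep-/- mice were at 14.07 to 14.49 (median 14.31) and 14.17 to 14.60 (median 14.39), and Pparα-/- mice at 13.68 to 13.92 (median 13.82) and 13.60 to 13.89 (median 13.71). Pparα-/- mice did not overlap with Pparα hep-/- mice on either diet, nor with WT mice on HFD. The levels in Pparα hep-/- mice on CTRL were above WT (0.36 ± 0.07, adjusted p = 9.25e-05), which is the direction opposite to that in Pparα-/- mice, where the difference of -0.16 did not pass (adjusted p = 0.077). The HFD response was lower than in WT by 0.43 ± 0.09 in Pparα-/- liver (adjusted p = 0.00149), and this call held without array weights (-0.36, adjusted p = 0.0225). In Pparα hep-/- liver the response differed from that in WT by -0.30, with -0.04 and -0.32 within the wash batches.

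**Figure D4:**
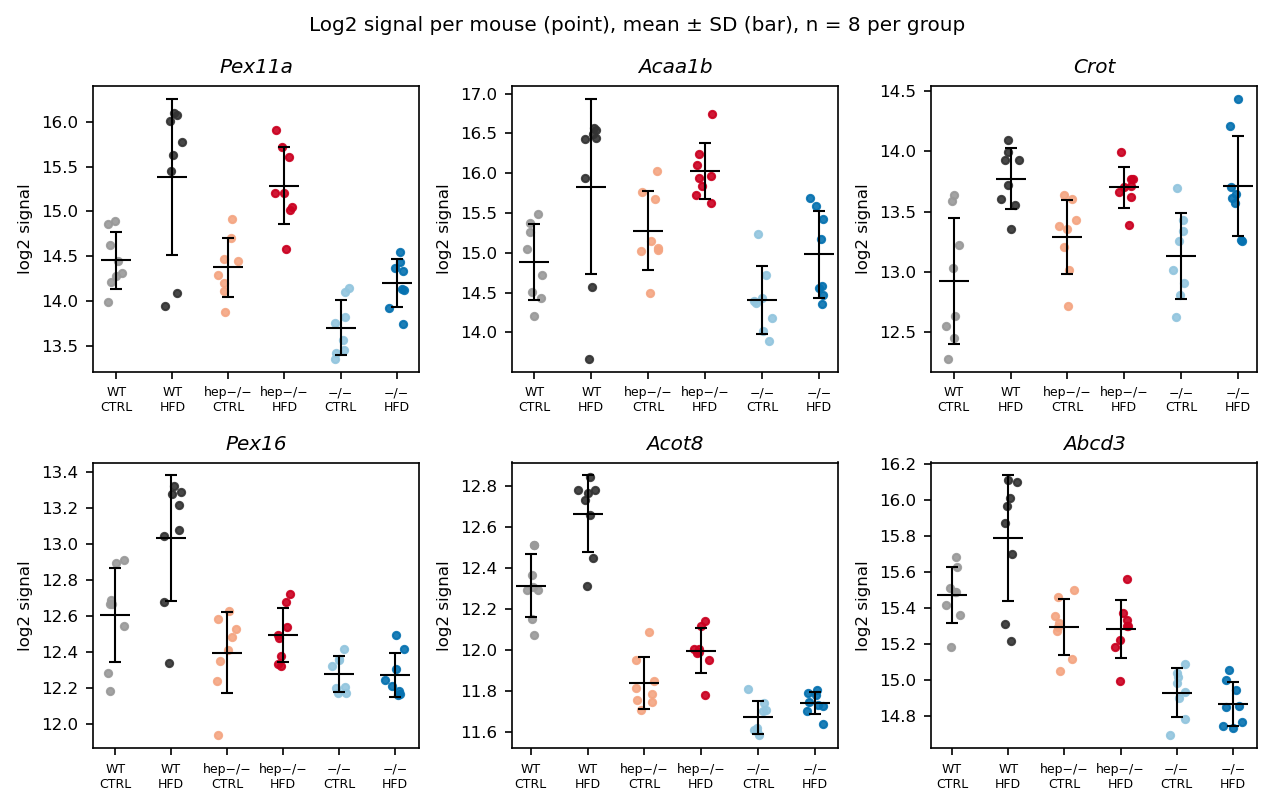
Log2 signal of each mouse (points, y axis) in the 6 groups (x axis) for Pex11a, Acaa1b, Crot, Pex16, Acot8 and Abcd3, with mean ± SD over 8 mice. In the WT HFD group 2 mice lie low for Pex11a, Acaa1b, Pex16 and Abcd3, and Pparα-/- mice on HFD lie below the WT HFD mean for Pex11a and below every WT HFD mouse for Acot8 and Abcd3.

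All 3 membrane assembly peroxins rose on HFD in WT liver and were called in neither deletion line, against 5.12% of gene names. Pex3 and Pex19 are the docking site and the carrier for new peroxisomal membrane proteins, and Pex16 recruits Pex3. Pex16 (chr2:92219417-92219476) was at 12.19 to 12.91 (median 12.66) on CTRL and 12.34 to 13.32 (median 13.15) on HFD in WT mice, and these ranges overlap. Its rise was 1.49-fold (log2 0.58 ± 0.09, adjusted p = 2.02e-05). Pex16 in Pparα hep-/- mice was at 11.94 to 12.63 (median 12.45) and 12.32 to 12.72 (median 12.48), and in Pparα-/- mice at 12.17 to 12.42 (median 12.26) and 12.16 to 12.50 (median 12.23). The fitted HFD differences there were 0.04 and -0.00. The response was lower than in WT by 0.54 ± 0.12 in Pparα hep-/- and 0.58 ± 0.12 in Pparα-/- liver (adjusted p = 0.00352 and 0.00125). Without array weights these were -0.29 and -0.43 and did not pass (adjusted p = 0.377 and 0.0739). Pex3 rose by 0.32 and Pex19 by 0.41 in WT liver, and their responses were lower by 0.43 and 0.34 in Pparα hep-/- liver and by 0.31 and 0.37 in Pparα-/- liver.

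Of the 8 import peroxins, 1 rose on HFD in WT liver, 0 were called in Pparα hep-/- liver, and 1 rose and 2 fell in Pparα-/- liver. Over all gene names 9.32% rose in WT liver, 22.5% were called in Pparα hep-/- liver, and 13.8% rose and 12.6% fell in Pparα-/- liver. Pparα-/- mice were lower than WT on HFD for Pex5, Pex6, Pex13 and Pex14 (-0.30, -0.50, -0.097 and -0.35) and higher for Pex2 (0.19), against 23.7% and 24.1% of gene names. The Pparα-/- response was lower than that of WT for Pex6, Pex10, Pex13 and Pex14 (-0.26, -0.36, -0.21 and -0.38, adjusted p = 0.0358, 0.0373, 0.018 and 0.00365), against 7.77% of gene names. Pex14, a docking protein for the import receptors, was the one that rose in WT liver (0.19 ± 0.07, adjusted p = 0.0421). Pex14 (chr4:148334648-148334707) was at 9.96 to 10.26 (median 10.07) and 9.94 to 10.50 (median 10.27) in WT mice on CTRL and HFD. The range for Pparα hep-/- mice was 9.90 to 10.09 (median 10.01) and 9.89 to 10.34 (median 10.15), and for Pparα-/- mice 10.002 to 10.24 (median 10.11) and 9.74 to 10.24 (median 9.90). All these ranges overlap between diets, and the call in Pparα-/- liver was downward (-0.19 ± 0.06, adjusted p = 0.0169). The Pparα-/- response was below that of Pparα hep-/- by 0.30 ± 0.08 (adjusted p = 0.0295), and this call was lost without array weights (-0.27, adjusted p = 0.245), with scaling to the 75th percentile (0.0782) and without the filter on dim probes (0.0972). Pex6, an ATPase that recycles the import receptor, also fell on HFD in Pparα-/- liver (-0.16). Pex6 was lower than in WT in all 4 comparisons of a deletion line with WT, by 0.25 to 0.50. Pex7, the receptor for the second type of import signal, rose in Pparα-/- liver (0.18). Pex2, a ubiquitin ligase of the import machinery, was higher than WT by 0.19 in Pparα-/- mice on each diet. Pex5, the main import receptor, was lower in Pparα-/- than in Pparα hep-/- mice on CTRL (-0.18), but was 0.03 higher within the first wash batch. Of 138 such calls between groups, it was the only one without the same sign in both batches. Pex10 and Pex13 were higher than WT on CTRL in Pparα hep-/- mice (0.28 and 0.13). Pex26, the membrane anchor of the recycling ATPases, was lower there (-0.55 ± 0.19) and higher in Pparα-/- than in Pparα hep-/- mice on HFD (0.50 ± 0.16).

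All 3 ABC transporters, which carry acyl-CoA or vitamin B12 derivatives across membranes, rose in WT liver, against 9.32% of gene names. Abcd3 (chr3:121461892-121461951), a carrier of long-chain and branched acyl-CoA into the peroxisome, was at 15.19 to 15.69 (median 15.49) and 15.22 to 16.11 (median 15.92) in WT mice on CTRL and HFD. The range for Pparα hep-/- mice was 15.05 to 15.50 (median 15.31) and 14.99 to 15.56 (median 15.30), and for Pparα-/- mice 14.69 to 15.09 (median 14.96) and 14.73 to 15.06 (median 14.85). Every Pparα-/- mouse was below every WT mouse on the same diet. The WT rise was 1.33-fold (log2 0.41 ± 0.09, adjusted p = 0.0016), and the response was lower by 0.48 ± 0.13 in Pparα-/- liver (adjusted p = 0.00793), or 0.38 without array weights (adjusted p = 0.0971). Within the wash batches this difference was -0.20 and -0.56. Abcd3 in Pparα-/- against WT was lower by 0.57 on CTRL and 1.05 on HFD.

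Abcd2 (chr15:90976316-90976375), which handles very long-chain and polyunsaturated acyl-CoA, was the dimmest member. It was well above background in 6 and 7 of 8 WT mice on CTRL and HFD, in 6 and 5 of 8 Pparα hep-/- mice and in 0 Pparα-/- mice. WT mice were at 5.58 to 7.72 (median 6.999) and 5.60 to 8.67 (median 7.602), and Pparα hep-/- mice at 5.60 to 6.66 (median 5.99) and 5.51 to 6.43 (median 5.89). Pparα-/- mice were at 4.72 to 5.09 and 4.94 to 5.38, below all WT and all Pparα hep-/- mice. As these arrays give only a bound, the level was at least 2.19-fold higher in WT than in Pparα-/- mice on CTRL (adjusted p = 8.55e-07) and at least 3.68-fold higher on HFD (adjusted p = 2.24e-12). Against Pparα hep-/- mice the bounds were at least 1.34-fold and 1.35-fold (adjusted p = 0.000578 and 0.00429). The bound sets the mean of the brighter group against the lowest signal well above background on each dim array, or the probe's own signal where higher. Abcd2 rose 2.03-fold on HFD in WT liver (log2 1.02 ± 0.26, adjusted p = 0.00388) and differed by 0.00 ± 0.22 in Pparα hep-/- liver. Signals in Pparα hep-/- mice lay near background, so this flat value and the sizes that follow for this line are uncertain. In Pparα hep-/- against WT mice it was lower by 0.67 ± 0.25 on CTRL (adjusted p = 0.0434) and by 1.69 ± 0.23 on HFD (adjusted p = 3.11e-07). The difference of these responses was -1.02 ± 0.34 (adjusted p = 0.0462), and it lost the call under 7 of the alternatives, with adjusted p of 0.0581 to 0.469. The Abcd2 probe lies 5.34 Mb from the nearest Ppara probe on chromosome 15. Abcd4, which exports vitamin B12 from lysosomes, rose by 0.41 in WT liver and was higher than WT on CTRL in both deletion lines, by 0.36 and 0.52.

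Among the enzymes of the beta-oxidation steps, the thiolases Acaa1a and Acaa1b had the largest rises in WT liver. Acaa1a and Acaa1b encode closely related 3-ketoacyl-CoA thiolases for the last step, and cross-hybridisation between them was not tested. Acaa1b (chr9:119057326-119057385) was at 14.20 to 15.48 (median 14.89) on CTRL and 13.67 to 16.57 (median 16.43) on HFD in WT mice. The WT HFD range contains the CTRL range, since replicates 1 and 2 were at 14.57 and 13.67 and the other 6 at 15.9 to 16.6. The rise was 2.59-fold (log2 1.37 ± 0.28, adjusted p = 0.00035), or 0.95 without array weights. Acaa1b in Pparα hep-/- mice was at 14.50 to 16.03 (median 15.10) and 15.63 to 16.75 (median 15.95), a rise of 0.83 ± 0.23 (adjusted p = 0.00912). In Pparα-/- mice it was at 13.89 to 15.24 (median 14.38) and 14.35 to 15.68 (median 14.88), and the difference of 0.50 did not pass (adjusted p = 0.132). The Pparα-/- response of Acaa1b differed from that of WT by -0.88 (adjusted p = 0.0998) over all mice and by -1.12 (adjusted p = 0.0111) without WT HFD replicates 1 and 2. On HFD, Pparα-/- mice were below Pparα hep-/- mice by 1.11 ± 0.23 (adjusted p = 0.000122).

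Acaa1a (chr9:119259353-119259412) rose in each genotype and was called in no comparison between genotypes. It was at 15.52 to 16.14 (median 15.93) and 16.06 to 16.91 (median 16.61) in WT mice. The Pparα hep-/- ranges were 15.75 to 16.35 (median 15.94) and 16.31 to 16.79 (median 16.48), and the Pparα-/- ranges 15.50 to 16.31 (median 15.76) and 16.24 to 16.66 (median 16.42). The HFD mice of each genotype overlap with the CTRL mice by a small margin. Acaa1a rose by 0.78 ± 0.10, 0.54 ± 0.08 and 0.64 ± 0.09 in WT, Pparα hep-/- and Pparα-/- liver (adjusted p = 6.32e-07, 1.63e-05 and 1.58e-06).

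Ehhadh, the bifunctional enzyme of the middle steps, was the one member that fell on HFD in Pparα hep-/- liver. Its probe (chr16:21761914-21761973) was at 12.25 to 13.46 (median 12.59) on CTRL and 11.82 to 12.61 (median 12.20) on HFD in these mice, and the ranges overlap. The change was -0.42 ± 0.16 (adjusted p = 0.0486). WT mice were at 11.73 to 12.86 (median 12.14) and 10.68 to 12.89 (median 12.47), and Pparα-/- mice at 11.69 to 13.16 (median 11.91) and 11.79 to 12.36 (median 12.17). The response in Pparα hep-/- liver was below that in WT by 0.72 ± 0.24 (adjusted p = 0.0475), which was lost under 6 of the alternatives (adjusted p of 0.0556 to 0.543). Hsd17b4, the other bifunctional enzyme, acts on branched chains and bile acid precursors. It rose in WT, Pparα hep-/- and Pparα-/- liver by 0.57, 0.59 and 0.43, and was lower than WT in both deletion lines on both diets, by 0.56 to 0.82. Scp2, whose products include a thiolase for branched chains, rose in Pparα hep-/- (0.22) and Pparα-/- liver (0.27).

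Acox2, the oxidase for bile acid precursors, was higher in the deletion lines. WT mice were at 13.72 to 14.81 (median 14.11) and 14.41 to 14.82 (median 14.60) on CTRL and HFD. The signal in Pparα hep-/- mice was 14.14 to 15.01 (median 14.33) and 14.56 to 15.10 (median 14.83), and in Pparα-/- mice 14.82 to 15.58 (median 15.29) and 15.25 to 15.63 (median 15.50). Pparα-/- mice did not overlap with WT mice on either diet. They were 2.25-fold higher on CTRL (log2 1.17 ± 0.11, adjusted p = 2.99e-12) and 1.80-fold higher on HFD (0.85 ± 0.09, adjusted p = 2.22e-10). Acox2 also rose on HFD by 0.54 in WT and 0.46 in Pparα hep-/- liver. No other member was called higher than WT in both deletion lines on both diets. Its promoter is one of the windows with the longer motif printed above.

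The auxiliary enzymes, which rearrange double bonds of unsaturated chains, included Ech1 and Eci2, which were lower than WT in both deletion lines on both diets. Ech1, a dienoyl-CoA isomerase, was read by a probe that lies across an exon junction, since its 60 bases span 196 bases of the genome (chr7:29616863-29617058, mm9). The probe is shown because Ech1 separated Pparα-/- mice completely from both other genotypes on each diet.
Ech1 probe: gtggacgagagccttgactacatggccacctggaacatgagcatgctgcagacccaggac
On CTRL, Ech1 was at 14.21 to 14.75 (median 14.36) for WT, 13.26 to 14.31 (median 13.76) for Pparα hep-/- and 11.91 to 13.12 (median 12.49) for Pparα-/- mice. On HFD the ranges were 14.49 to 15.57 (median 15.36), 14.57 to 15.06 (median 14.67) and 13.22 to 14.03 (median 13.67). The order of genotypes was the same on both diets, and Pparα-/- mice overlapped with neither of the others. On CTRL, the difference of Pparα-/- from WT mice was -2.01 ± 0.15 (fold 0.249, adjusted p = 4.56e-15), and that from Pparα hep-/- mice -1.32 ± 0.13 (adjusted p = 6.95e-11). Pparα hep-/- mice were lower than WT by 0.69 ± 0.14 (adjusted p = 0.000311). On HFD, Pparα-/- mice were lower than WT by 1.64 ± 0.13 (adjusted p = 1.56e-14) and lower than Pparα hep-/- mice by 1.02 ± 0.12 (adjusted p = 2.95e-09). Ech1 nevertheless rose on HFD in each genotype, by 0.92 ± 0.15, 0.99 ± 0.12 and 1.29 ± 0.13 (adjusted p = 2.02e-05, 3.81e-07 and 2.36e-09). In both deletion lines the HFD mice did not overlap with the CTRL mice, a separation seen with a call in 0.64% and 1.61% of gene names. None of the differences between these responses passed, the largest being 0.37 ± 0.20 for Pparα-/- against WT (adjusted p = 0.203).

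Eci2 (chr13:35069638-35069697), an enoyl-CoA isomerase with a close paralog in Eci3, separated WT from both deletion lines. On CTRL, mice were at 14.88 to 15.85 (median 15.23) in WT, 13.77 to 14.32 (median 14.04) in Pparα hep-/- and 13.64 to 14.11 (median 13.91) in Pparα-/- groups. On HFD they were at 15.24 to 15.79 (median 15.65), 13.99 to 14.71 (median 14.32) and 14.005 to 14.39 (median 14.29). No mouse of either deletion line reached the lowest WT mouse. The differences from WT were -1.25 ± 0.09 and -1.33 ± 0.10 on CTRL and -1.32 ± 0.08 and -1.42 ± 0.08 on HFD for Pparα hep-/- and Pparα-/- mice, and adjusted p was 4.89e-14, 2.35e-15, 1.99e-16 and 8.87e-19. The deletion lines were not called different from each other on either diet. Like Ech1, Eci2 rose on HFD in each genotype, by 0.40, 0.33 and 0.32. Decr2, a dienoyl-CoA reductase, rose in each genotype too (0.30, 0.21 and 0.14) and was lower than WT in both deletion lines on both diets, by 0.23 to 0.44. Pecr, a trans-2-enoyl-CoA reductase that takes part in chain elongation, went the other way on CTRL, with Pparα-/- mice 0.38 above WT.

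**Figure D5:**
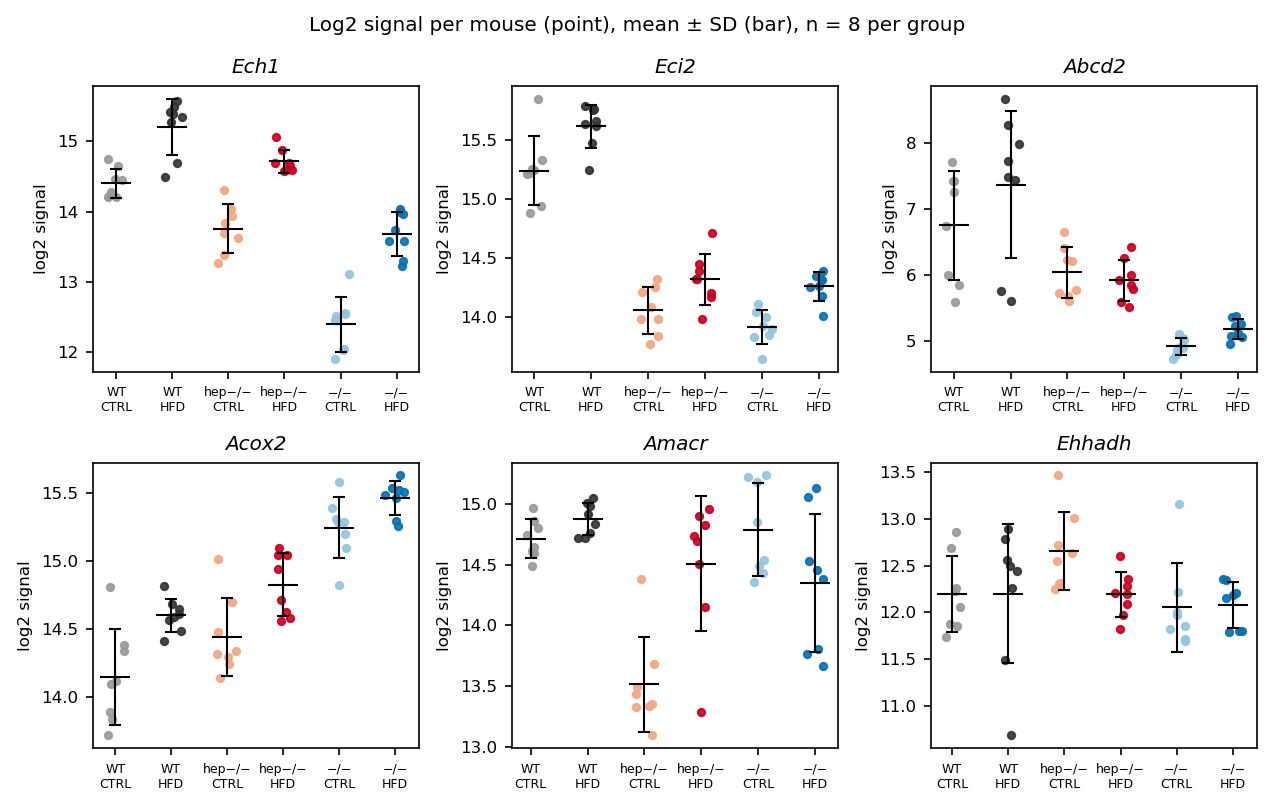
Log2 signal of each mouse (points, y axis) in the 6 groups (x axis) for Ech1, Eci2, Abcd2, Acox2, Amacr and Ehhadh, with mean ± SD over 8 mice. Pparα-/- mice lie lowest for Ech1 and Abcd2 and highest for Acox2, both deletion lines lie about equally low for Eci2, and Pparα hep-/- CTRL mice lie low for Amacr.

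Crot and Acot8, genes for the exit of shortened chains, rose in WT liver, against 9.32% of gene names. Crot (chr5:8966430-8966489), which makes carnitine esters of medium chains for export, was at 12.28 to 13.63 (median 12.83) on CTRL and 13.36 to 14.09 (median 13.82) on HFD in WT mice. All 8 HFD mice were above the CTRL mean, and the rise was 2.04-fold (log2 1.03 ± 0.17, adjusted p = 2.09e-05). Pparα hep-/- mice went from 12.72 to 13.63 (median 13.37) to 13.39 to 13.99 (median 13.71), and Pparα-/- mice from 12.62 to 13.69 (median 13.14) to 13.26 to 14.43 (median 13.63). The rises were 0.41 ± 0.14 and 0.63 ± 0.15 (adjusted p = 0.0315 and 0.00158), and HFD levels differed between no genotypes by the test, with adjusted p of 0.524 to 0.972. Acot8 (chr2:164618360-164618419), a peroxisomal acyl-CoA thioesterase, was at 12.07 to 12.51 (median 12.30) and 12.31 to 12.84 (median 12.75) in WT mice. Pparα hep-/- mice were at 11.71 to 12.09 (median 11.80) and 11.78 to 12.14 (median 12.00), and Pparα-/- mice at 11.58 to 11.81 (median 11.66) and 11.64 to 11.80 (median 11.74). On HFD every mouse of the deletion lines was below every WT mouse, by 0.74 ± 0.06 in Pparα hep-/- and 1.00 ± 0.06 in Pparα-/- groups (adjusted p = 1.2e-13 and 2.88e-19). Acot8 rose on HFD by 0.42 in WT liver, and its response was lower by 0.28 and 0.34 in the deletion lines.

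Cat, which breaks down hydrogen peroxide, rose by 0.33 in WT liver (adjusted p = 0.00281), and in Pparα-/- mice it was lower than WT on HFD by 0.30. Hacl1, a lyase of alpha-oxidation, was lower in Pparα-/- than in WT mice on HFD (-0.78 ± 0.22, adjusted p = 0.00279) and varied widely, with log2 signals from 12.68 to 15.15 in Pparα-/- CTRL mice. Amacr (chr15:10925139-10925198), the racemase that readies branched chains and bile acid precursors for beta-oxidation, differed from WT in Pparα hep-/- mice on CTRL and in Pparα-/- mice on HFD. On CTRL, Pparα hep-/- mice were at 13.10 to 14.38 (median 13.40), WT mice at 14.49 to 14.97 (median 14.70) and Pparα-/- mice at 14.36 to 15.23 (median 14.70). No Pparα hep-/- mouse reached the lowest WT mouse, and the difference was -1.25 ± 0.22 (adjusted p = 2.8e-05). Pparα-/- CTRL mice exceeded the Pparα hep-/- mice by 1.30 ± 0.20 (adjusted p = 2.1e-06). On HFD, Pparα hep-/- mice were at 13.29 to 14.95 (median 14.71), 7 of 8 above the CTRL mean, a rise of 1.03 ± 0.19 (adjusted p = 0.000129). WT HFD mice were at 14.72 to 15.05 (median 14.88) and Pparα-/- HFD mice at 13.67 to 15.13 (median 14.42), and their HFD differences of 0.17 and -0.44 did not pass. Between these groups Pparα-/- mice were lower than WT by 0.55 ± 0.19 (adjusted p = 0.0174), and the ranges overlap. The response in Pparα-/- liver was below that in Pparα hep-/- liver by 1.47 ± 0.27 (adjusted p = 0.00108), and by 1.41 without array weights (adjusted p = 0.00968). Against WT, the Pparα hep-/- response was higher by 0.86 ± 0.29 and just missed the threshold (adjusted p = 0.0501).

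Of 40 other peroxisomal genes, 38 were tested, Acoxl and Dao being below the filter. In WT liver 21 rose on HFD and 1 fell (9.32% and 10.1% of all gene names). In Pparα hep-/- liver 8 rose and 4 fell (10.7% and 11.8%), and in Pparα-/- liver 11 rose and 5 fell (13.8% and 12.6%). Crat, a carnitine acetyltransferase, and Acot4, a thioesterase for dicarboxylic acyl chains, had the largest WT changes among them (1.22 ± 0.32 and 1.21 ± 0.27, adjusted p = 0.00484 and 0.00127). Nudt7, a diphosphatase of coenzyme A, fell in Pparα hep-/- and Pparα-/- liver (-0.82 and -0.92). Hao2, a hydroxyacid oxidase, was called higher on HFD there, but its probe was well above background on CTRL in 2 and 1 of 8 mice and on HFD in 6 and 7 of 8, so no size is given. Against WT, 14 of these genes were lower and 9 higher in Pparα-/- liver on CTRL (18.4% and 16.9% of gene names), and 19 were lower and 7 higher on HFD (23.7% and 24.1%). Among the lower, Eci3 and Pxmp4, a membrane protein, differed by -1.40 and -1.35 on CTRL, and Crat and Eci3 by -1.69 and -1.496 on HFD.

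Liver RNA was taken from whole tissue, in which fewer cells of a type and less RNA per cell cannot be told apart. Of the 5 hepatocyte markers, Alb and Serpina1c lay near the top of the scale, where the highest mean of any gene name was 19.09, and the highest Alb signal was 18.93 in every group, so these probes could not show a rise and say little about a change. Ttr was called in none of the 9 comparisons between groups. Cps1 fell on HFD in each genotype (-0.88, -0.53 and -0.71). On CTRL it was lower than WT in Pparα hep-/- and Pparα-/- mice (-0.56 and -0.62), and on HFD in Pparα-/- mice (-0.46). Apoa1 was lower than WT on CTRL and HFD in Pparα hep-/- (-0.25 and -0.17) and in Pparα-/- mice (-0.51 and -0.18). Unlike Cps1, Apoa1 rose on HFD in Pparα-/- liver (0.23), where its response was higher than in WT (0.34). On HFD against CTRL, 0 of 5 macrophage markers rose for WT liver, 3 for Pparα hep-/- and 5 for Pparα-/- liver, and 0, 3 and 4 of 4 stellate cell and fibroblast markers did. Of all gene names, 9.32%, 10.7% and 13.8% rose. On HFD, macrophage markers were higher than WT for 4 of 5 genes in Pparα hep-/- and 5 of 5 in Pparα-/- liver, and stellate cell and fibroblast markers for 4 of 4 in both. Of all gene names, 14.6% and 24.1% were higher. The summed macrophage signal was 13.7 to 16.2 in WT, 15.1 to 16.2 in Pparα hep-/- and 15.4 to 16.5 in Pparα-/- HFD mice on the log2 scale, and the stellate and fibroblast sum 13.74 to 16.37, 15.05 to 15.96 and 15.25 to 15.88. All 3 endothelial markers differed between Pparα-/- and WT mice on CTRL and HFD, against 35.3% and 47.8% of gene names. Stab2 (1.05 and 1.29) and Pecam1 (0.31 and 0.38) were higher and Clec4g (-0.40 and -0.52) lower. Stab2 (0.39 and 0.53) and Pecam1 (0.22 and 0.20) were also higher than WT in the other deletion line. The endothelial sum was 13.17 to 13.70 in WT, 13.41 to 13.98 in Pparα hep-/- and 13.69 to 14.04 in Pparα-/- HFD mice. Of 3 neutrophil markers, S100a8 and S100a9 were higher than WT on HFD in Pparα-/- mice (1.67 and 1.94). S100a9 was also higher in Pparα hep-/- mice (1.03). These are weighted fits, and the WT HFD group was widely spread. Unweighted S100a9 means on HFD were 10.11 ± 2.27 (SD) for WT, 10.23 for Pparα hep-/- and 11.25 for Pparα-/- liver. Those of S100a8 were 8.61 ± 2.30, 8.65 and 9.45. Ly6g, the third marker, was not called against WT on HFD (-0.03 for Pparα-/-, -0.17 for Pparα hep-/- mice). Its HFD response was lower than in WT for Pparα hep-/- liver (-0.42). The neutrophil sum on HFD, WT first and Pparα-/- last, was 9.49 to 14.85, 10.37 to 12.02 and 11.16 to 12.45. Of 3 red blood cell markers, Alas2 in Pparα-/- CTRL mice exceeded WT without overlap (0.88) and Pparα hep-/- mice (0.63), and it fell on HFD in Pparα-/- liver (-0.54). The globins Hba-a1 and Hbb-b1 were not called in these comparisons. Their fitted differences were 0.28 and 0.84 from WT, -0.39 and 0.05 from Pparα hep-/- mice, and upward on HFD in Pparα-/- liver (0.29 and 0.30), each pair from low to high. Of 3 cholangiocyte markers, Krt7 was lower in Pparα-/- mice than in WT on CTRL (-0.62) and than in the other deletion line on HFD (-0.47). The part of these markers in the differences between genotypes and in the HFD responses was not tested. Cfd was the one adipocyte marker tested, Adipoq and Plin1 being below the filter. On HFD its mean log2 signal over 8 mice was 12.60 ± 3.76 (SD) for WT, 7.21 ± 0.92 for Pparα hep-/- and 6.09 ± 0.85 for Pparα-/- liver, against 7.94 ± 1.67 in WT on CTRL. It was well above background in 7, 8 and 4 of these HFD mice, so the Pparα-/- mean is uncertain. The weighted fit gave an HFD difference of 5.79 in WT liver. Its part in the WT response of the members was not tested either.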

How the data were processed

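Cy3-labelled liver RNA of 48 mice was hybridised by the authors to 1-colour Agilent arrays, and the deposited scanner files hold, per the file headers, a median intensity for each spot, without background subtraction or normalization (Agilent Feature Extraction 10.10.1.1). The authors also deposited a log2 table, which they had filtered, corrected for wash bath and quantile normalized. It was used as an alternative only.

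Here, log2 median intensity was taken for 56605 probes, outlier spots were dropped and the mean was taken over replicate spots. Of these probes, 33323 were well above background on 4 or more of the 8 arrays of a group and were tested. After quantile normalization, limma 3.58.1 (R 4.3.3) was fitted with a mean per group, wash batch and array weights. P was adjusted by Benjamini-Hochberg within a comparison over all probes, with calls at 0.05. The brightest tested probe stands for a gene, and levels of different probes are not compared. Probe coordinates are mm9, as the files give them. Differences within a wash batch are between unweighted group means, and 195 missing values were left out of the fit. Named in full are, per comparison, the 3 called members with the largest changes. The members, the lists and the other peroxisomal genes were chosen with earlier results of these data known. The alternatives are named in the closing section. For 16 members other probes were tested as well. Where the brightest was called, these had the same sign in 82 of 87 cases, and 0 were called in the opposite direction.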

Additional observations from a re-analysis of the deposited data

Results flagged for a closer look

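In 84 groups of 8 mice, tested for the 14 members described in full, 3 had a mouse far from the others, where chance alone gives about 1 in 20. These were the highest Pparα hep-/- CTRL mouse for Amacr, at a log2 signal of 14.38 against 13.69 in the next, the highest WT CTRL mouse for Eci2 (15.85 against 15.33) and the highest Pparα-/- CTRL mouse for Ehhadh (13.16 against 12.21).

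The HFD response differed between genotypes for the following members by the test of the difference in limma. In Pparα hep-/- against WT liver it was lower, that is less positive or more negative, for Pex3 (log2 difference -0.43), Pex16 (-0.54), Pex19 (-0.34), Pex11g (-0.30), Ehhadh (-0.72), Acot8 (-0.28), Abcd2 (-1.02) and Abcd3 (-0.41), with adjusted p of 0.00159 to 0.0475. In Pparα-/- against WT liver it was lower for Pex6 (-0.26), Pex10 (-0.36), Pex13 (-0.21), Pex14 (-0.38), Pex3 (-0.31), Pex16 (-0.58), Pex19 (-0.37), Pex11g (-0.43), Pecr (-0.33), Acot8 (-0.34), Abcd3 (-0.48) and Cat (-0.37), with adjusted p of 0.00125 to 0.0407. In Pparα-/- against Pparα hep-/- liver it was lower for Pex14 (-0.30, adjusted p = 0.0295) and Amacr (-1.47, adjusted p = 0.00108). All 22 kept their sign within both wash batches.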

How the results depend on the processing

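The number of called members stayed within 1.5 times for HFD against CTRL in WT and Pparα-/- liver, for Pparα-/- against WT on both diets, for Pparα-/- against Pparα hep-/- on CTRL and for Pparα hep-/- against WT on HFD under all alternatives run, which also included normexp background correction, the authors' table and the mean over the probes of a gene. Without array weights it was 6 in place of 12 for the HFD response in Pparα hep-/- liver, 9 in place of 16 for Pparα hep-/- against WT on CTRL and 9 in place of 16 for Pparα-/- against Pparα hep-/- on HFD. The differences of HFD response were less stable than the comparisons of groups. For Pparα hep-/- minus WT, 8 calls became 0 without weights (3 at an unadjusted p under 0.05), 4 without the wash term, 4 with slide as a block, 2 without the filter on dim probes and 2 with the replicate block. For Pparα-/- minus WT, 12 became 2 without weights and 6 without the filter. For Pparα-/- minus Pparα hep-/-, 2 became 1 without weights, 1 without the filter and 1 with the processed signal scaled to the 75th percentile. The cause was not tested.

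Leaving out 1 array at a time was done for the 5 of low weight and for WT HFD replicate 1, and was chosen after seeing the data, as were averaging the probes of a gene before the fit and leaving out WT HFD replicates 1 and 2 together. With 1 array left out at a time, the counts were 18 to 22, 11 to 13 and 10 to 11 for the HFD responses in WT, Pparα hep-/- and Pparα-/- liver. For Pparα hep-/- against WT, Pparα-/- against WT and Pparα-/- against Pparα hep-/- they were 16 to 18, 16 to 16 and 14 to 16 on CTRL, and 12 to 13, 21 to 23 and 16 to 16 on HFD. For the differences of response they were 6 to 11, 11 to 15 and 2 to 2. Without WT HFD replicates 1 and 2 together some counts were above these ranges, as given earlier. Of 630 recomputed values for genes given in full, 611 kept their direction and call, 19 kept the direction only and 0 reversed. All 19 were differences of HFD response. Of these, 7 were for Abcd2 and 6 for Ehhadh, in Pparα hep-/- minus WT liver. Both lost the call without array weights (adjusted p = 0.469 and 0.543), without the wash term (0.0581 and 0.0741), with slide as a block (0.119 and 0.16), without the filter (0.224 and 0.245), with the replicate block (0.152 and 0.106) and without WT HFD replicate 6 (0.0588 and 0.0556), and Abcd2 also with scaling to the 75th percentile (0.138). Another 3 were for Pex14 in Pparα-/- minus Pparα hep-/- liver (adjusted p of 0.0782 to 0.245), and without array weights 1 was for Abcd3 in Pparα-/- minus WT and 1 each for Pex16 against WT in both deletion lines.

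Replicate numbers did not pair the mice. Same-numbered mice deviated from their group means with a mean correlation of 0.0373 (-0.456 to 0.694), against -0.0039 for different numbers. With the replicate block the counts were 18, 12 and 10 for the HFD responses, 12, 16 and 13 on CTRL, 10, 23 and 16 on HFD, and 2, 10 and 2 for the differences. Dim probes limit Abcd2, which was well above background in no Pparα-/- mouse and in only part of the Pparα hep-/- and WT mice.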
